A study of Caenorhabditis elegans with 12 samples.

Results

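The interaction of ultraviolet light (UV) and titanium dioxide (TiO2) was examined on all 12 arrays of the series, with 3 arrays in each of 4 groups. The animals were hermaphrodites of wild-type Caenorhabditis elegans, a nematode, used as young adults. For each of 22548 probe sets the contrast was the effect of TiO2 in worms that had received UV (UV+TiO2 minus UV) less its effect in worms that had not (TiO2 minus control), on log2 values. A negative interaction means that TiO2 lowered a gene more, or raised it less, with UV than without it. On this scale 0 means that the fold effects of both agents multiply. The UV+TiO2 group received both agents, the UV group light alone, the TiO2 group the compound alone, and the control group neither. Exposure lasted 24 h in every group, unfed, at 20 °C in potassium and sodium chloride medium. The UV+TiO2 and UV groups were irradiated for the first 4 h and then spent 20 h in the incubator that held the other groups. The dose and particle form of TiO2 and the wavelength of the light are not given in the sources used here. Whether replicate arrays stem from different worm cultures is not stated, so the p-values reflect spread among these samples only, and that spread may be technical.

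TiO2 is a white pigment and a photocatalyst: under ultraviolet light its surface forms reactive oxygen species, which is why the compound and the light are tested together. Worms answer oxidants and foreign compounds with glutathione S-transferases and other conjugating enzymes under the factor SKN-1, and damaged proteins with heat shock chaperones. The epidermis beneath the cuticle also makes small antimicrobial peptides, the nlp and caenacin (cnc) groups, which are induced by fungal infection and wounding through a p38 MAP kinase cascade, STAT-like factors and, for cnc-2, the TGF-beta ligand DBL-1. RNA came from whole worms, with any embryos they carried, so fewer cells of a type and less RNA per cell cannot be told apart.

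Adult markers were present on all arrays. The adult cuticle collagen gene col-19 averaged 12.84, 12.87, 11.71 and 11.74 in the UV+TiO2, UV, TiO2 and control groups as log2 levels, and the yolk protein gene vit-2 averaged 12.41, 12.15, 12.80 and 12.78. Both stood far above the array medians of 6.36 to 6.63. The arrays without UV spread more around their group means than those with UV: the SD of the residuals over all probe sets was 0.13 to 0.22 on the 6 TiO2 and control arrays, against 0.08 to 0.14 on the 6 UV+TiO2 and UV arrays. Control replicate 1 had the widest residuals and the lowest weight when limma estimated one per array (0.28), followed by control replicate 3 (0.32) and TiO2 replicate 1 (0.36). UV replicate 2 had the highest weight (5.82).

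No gene passed for the interaction. Limma called 0 of 22548 probe sets (0% higher or lower), with a smallest adjusted p of 0.12, while 1162 (5.15%) had an unadjusted p under 0.05, 634 of them positive (2.81%) and 528 negative (2.34%). A flat distribution of p-values would give 1127.4 at that limit. The median interaction was 0.02 and the range from the 1st to the 99th percentile was −0.57 to 0.48. The precision bears on this count. An interaction combines 4 group means, and its median standard error (SE) was 0.17, against 0.12 for a difference between 2 groups. A probe set with the median SE would have needed an interaction of 1.38 on the log2 scale, or 2.61-fold, to pass on its own. The 95% interval lay wholly inside ±1 for 95.4% of probe sets and inside ±1.5-fold for 65%.

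**Figure D1:**
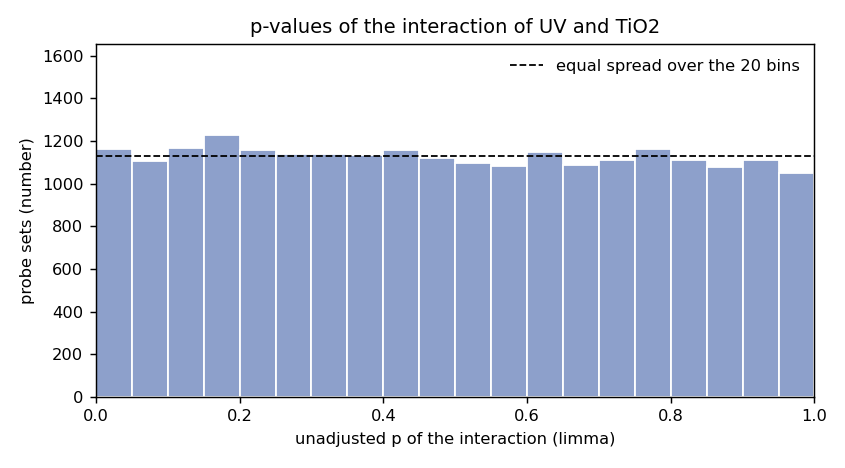
Number of probe sets (vertical axis) in each bin of the unadjusted limma p of the interaction (horizontal axis), over 22548 probe sets. The lowest bin holds 1162 probe sets, close to the dashed line of an equal spread over the 20 bins, and the other bins lie between 1051 and 1226.

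The largest interactions leaned one way although none was called. Of 17 probe sets with an interaction beyond ±1, 16 were negative. An unadjusted p below 0.001 was found for 32 probe sets, 24 negative and 8 positive, where a flat distribution would give 22.548 in all. The 16 negative ones stood for 14 genes, since F15E6.3 and T13F3.6 had 2 probe sets each. Among them were 5 genes of epidermal antimicrobial peptides (nlp-27, nlp-28, nlp-29, nlp-30 and cnc-4). The single positive one, at 1.42 (limma adjusted p = 0.47), had no gene symbol in the platform annotation.

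The gene with the smallest p was F23F12.12, for which no role is given here. Its log2 level was 9.33, 9.29 and 9.49 on the UV+TiO2 arrays and 10.82, 10.65 and 10.46 on the UV arrays. It was 10.95, 10.88 and 11.02 on the TiO2 arrays and 11.21, 11.11 and 11.02 on the control arrays. All 3 UV+TiO2 arrays lay below every other array. If the effects of UV and TiO2 had added on the log2 scale, the joint mean would have been 10.48, against the measured 9.37 ± 0.11 (SD, n = 3). The interaction was −1.11 (SE 0.15, 95% interval −1.43 to −0.80, limma adjusted p = 0.12). This probe set carries the suffix _x_at, so it may also detect related sequences.

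cnc-4, which encodes a caenacin peptide, came next. It had log2 levels of 8.01, 7.84 and 7.91 with UV+TiO2, against 9.45, 9.48 and 9.20 with UV. With TiO2 alone they were 9.30, 9.11 and 9.31, against 9.68, 9.80 and 9.60 in control worms. The arrays with TiO2 lay below those without it in both settings. The level was 2.75-fold lower in UV+TiO2 than in UV worms (limma adjusted p = 0.000108). It was 1.37-fold lower in TiO2 than in control worms, which did not pass (adjusted p = 0.462). The joint level of 7.92 stood below the 8.93 that adding both effects would give, an interaction of −1.01 (SE 0.14, 95% interval −1.32 to −0.70, limma adjusted p = 0.143).

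The epidermal peptide list held 16 measured genes, 8 of the nlp group and 8 caenacins. The list was chosen with earlier results of these data known. None passed for the interaction (0% of all probe sets did), 14 of 16 interactions were negative, and the median was −0.42, against 0.02 over all 17118 genes. An unadjusted p under 0.05 was reached by 8 of the 16, all negative, where 5.29% of all genes reached it in either direction. The mean log2 level of the 16 genes was 6.22, 6.15 and 6.14 on the UV+TiO2 arrays and 7.04, 7.04 and 6.65 on the UV arrays. It was 7.26, 7.33 and 7.34 on the TiO2 arrays and 7.53, 7.54 and 7.5 on the control arrays. The 4 groups did not overlap, and the joint exposure was the lowest. Hypodermal markers, which stand for the tissue that makes these peptides, were also counted. The 25 genes had a median interaction of 0.00, with 12 negative and 13 positive. Under median centring the median was −0.06 and 18 were negative, so this list has no settled direction. Its member grl-21 was called lower for TiO2 both with UV and without. An unadjusted p under 0.05 was reached by 16% of them, 3 negative and 1 positive, and the lowest interaction was −0.78 (mup-4). The mean level of the 25 genes was 7.58 to 7.67 on the UV+TiO2 arrays and 7.62 to 7.69 on the UV arrays. It was 8.41 to 8.43 on the TiO2 arrays and 8.30 to 8.47 on the control arrays.

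nlp-29, a widely used reporter of epidermal wounding, had log2 levels of 7.54, 7.14 and 7.01 with UV+TiO2, against 9.04, 9.05 and 8.35 with UV. With TiO2 alone it had 8.79, 8.83 and 8.79, against 9.78, 9.31 and 9.05 in control worms. The arrays with TiO2 lay below those without it in both settings. The difference was −1.58 with UV (limma adjusted p = 0.0125) and −0.58 without UV (adjusted p = 1). Its interaction was −1.004 (SE 0.30, adjusted p = 0.827).

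nlp-28 had the most negative interaction of the list at −1.13 (SE 0.32, limma adjusted p = 0.807). Its levels were 7.09, 6.396 and 6.402 with UV+TiO2 and 8.45, 8.31 and 7.51 with UV, against 8.62, 8.71 and 8.85 with TiO2 and 9.17, 9.05 and 8.94 in control worms. UV replicate 3 was the lowest of the UV arrays here, as it was for 13 of the 16 genes.

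For nlp-30 the TiO2 and control arrays overlapped. Its levels were 5.77, 5.98 and 5.65 with UV+TiO2, against 7.13, 6.88 and 6.75 with UV, while the TiO2 arrays at 7.08, 7.35 and 7.77 overlapped the control arrays at 7.61, 7.46 and 7.34. The interaction was −1.05 (SE 0.23, limma adjusted p = 0.614). cnc-3 had the same shape at −0.79 (SE 0.17, adjusted p = 0.614), with −0.72 for TiO2 with UV and 0.08 without. nlp-27 was at −1.01, nlp-33 at −0.65 and cnc-8 at −0.35.

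Genes nlp-31, nlp-30, nlp-29, nlp-28 and nlp-27 lie side by side on chromosome V in the WBcel235 annotation, with no protein-coding gene between neighbours, and so do cnc-1, cnc-5, cnc-4, cnc-3 and cnc-2 on that chromosome. Values differed within the caenacin row: cnc-5, which lies beside cnc-4, had an interaction of −0.10 and cnc-1 one of −0.18, against −1.01 for cnc-4. Over the 4 groups cnc-5 averaged 4.81 to 4.91 and cnc-1 4.47 to 4.78, against 7.92 to 9.69 for cnc-4. The levels of cnc-5 and cnc-1 lay below the array medians of 6.36 to 6.63, where a fall may not show. The nlp-27 to nlp-31 probe sets all carry the suffix _x_at and may share signal between paralogs, so their 5 values may not be independent. The probe sets of cnc-1, cnc-2 and cnc-3 carry it too, and those of cnc-4 and cnc-5 do not.

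**Figure D2:**
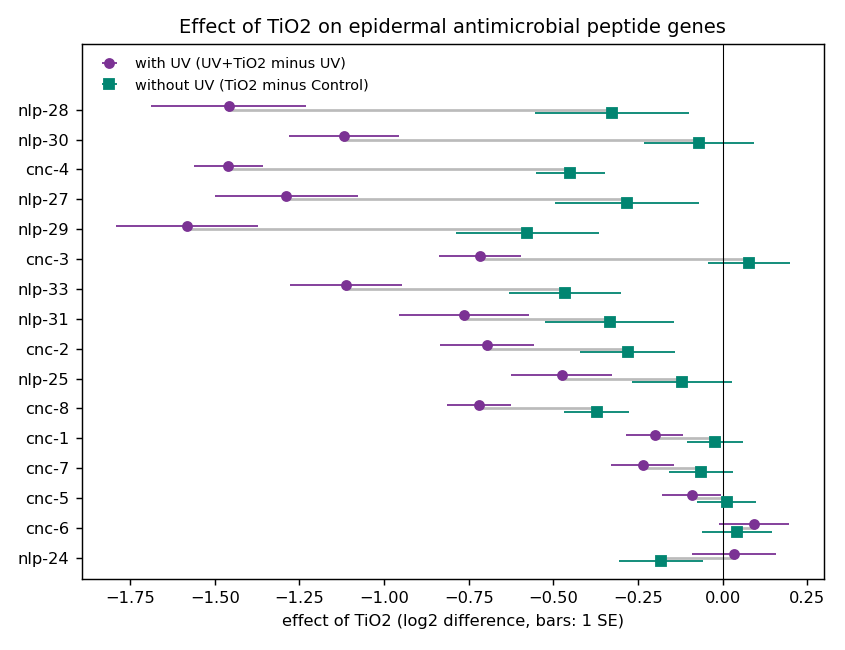
Effect of TiO2 (log2 difference, horizontal axis, bars 1 SE from limma) on each of the 16 epidermal antimicrobial peptide genes, with UV (circles, UV+TiO2 minus UV) and without UV (squares, TiO2 minus control). For 15 of the 16 genes the effect is larger in size with UV, and nlp-24 is the exception. The 15 include cnc-6, which is at 0.09 with UV and 0.04 without. No share over all genes is set beside this count, and over all probe sets the effect also spread more with UV (SD 0.16 against 0.14).

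Median centring moved the median of all probe sets to −0.04, and 14 of the 26 positive list medians, of 40 lists in all, turned negative under it. List medians near 0 thus have no settled direction. Of all 17118 genes 54.7% had a positive and 45.3% a negative interaction, which is the background for the counts of signs that follow. An unadjusted p under 0.05 was reached by 5.29% of all genes, the background for the counts at that limit. Among signalling genes upstream of the peptides, of 21 genes of the STAT and p38 cascade 0 passed, 1 had an unadjusted p under 0.05, and the median interaction was 0.12. That one was tir-1, which encodes the adaptor at the head of the p38 cascade, at 0.43. Its other probe set gave 0.18 (SE 0.39). Of 21 TGF-beta genes 0 passed, with a median of −0.05. The ligand gene dbl-1 was at 0.46 (SE 0.23, limma adjusted p = 0.962) and lon-1, a secreted target of that pathway, at −0.59 (SE 0.18, adjusted p = 0.827). Other immune effector families had medians nearer 0. Of 34 saposin-like and lysozyme genes 23 had positive interactions (median 0.11), and so did 136 of 220 C-type lectin genes (median 0.05, but −0.01 under median centring). Of 13 fipr peptide genes 2 had an unadjusted p under 0.05, both negative: fipr-21 (−0.45) and fipr-2 (−0.68). Of 33 genes in the list of intracellular pathogen response and other infection response (irg) genes 5 did, all positive. They included irg-1 at 0.49, irg-3 at 0.50 and irg-8 at 0.42. Over all 33 genes of that list 18 interactions were positive and 15 negative (median 0.03, but −0.02 under median centring).

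For the genes that TiO2 lowered under UV the interaction tests whether that effect differs from the one without UV. For UV+TiO2 against UV limma called 20 probe sets (0.0887% of those tested), all lower, and for TiO2 against control it called 1 (0.00443%), grl-21. The count of 20 ran from 2 to 69 when 1 array was left out, with 2 without UV replicate 1 or UV replicate 2, 3 without UV+TiO2 replicate 2 or 3, 9 without UV+TiO2 replicate 1, 36 without control replicate 1 and 69 without UV replicate 3. The interaction shares its UV+TiO2 and UV arrays with the first of these comparisons, so a low value there carries over into the contrast. Of the 20, 19 had a negative interaction and 18 had a 95% interval that left out 0, before any adjustment for the number of tests. After adjustment none passed, with adjusted p from 0.12 to 0.964. grl-21, a ground-like gene of the hedgehog-related family, was the one called in both comparisons on all arrays and the one with a positive interaction. Its call for TiO2 against control (limma adjusted p = 0.0394) passed in 6 of 24 alternatives, and in 1 of the 12 that left out 1 array (adjusted p 0.0488 to 0.346). It was lost with the replicate block (adjusted p = 0.119). Its levels were 6.51, 6.49 and 6.48 with UV+TiO2 and 6.94, 6.95 and 6.91 with UV. With TiO2 they were 8.82, 8.71 and 8.76, and in control worms 9.37, 9.32 and 9.38. The difference was −0.44 with UV and −0.60 without UV on the log2 scale, and the interaction was 0.16 (SE 0.10, 95% interval −0.06 to 0.37). fipr-26 was also lower in both, at −0.92 with UV and −0.68 without (interaction −0.24, 95% interval −0.70 to 0.21).

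**Figure D3:**
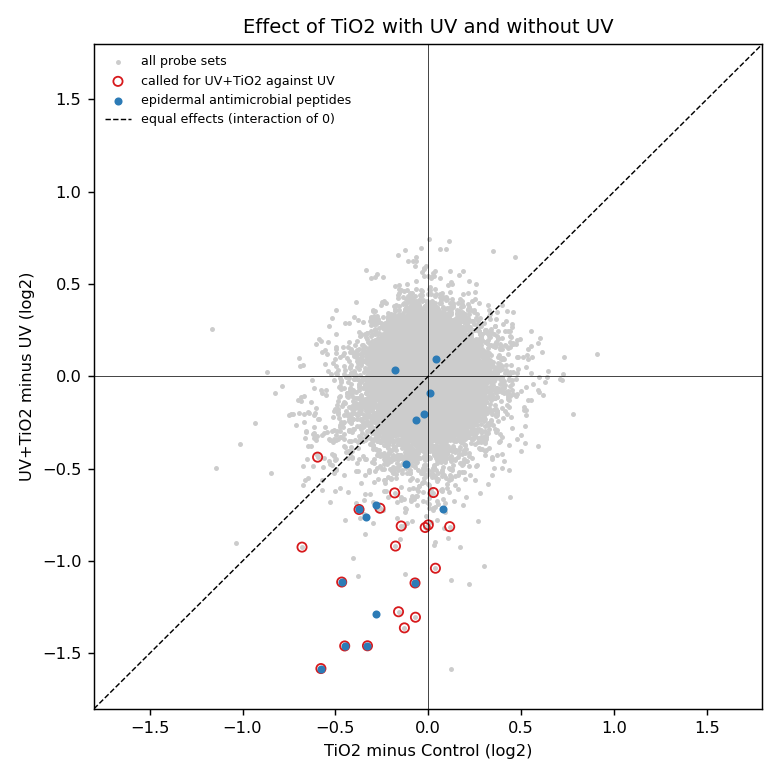
Log2 effect of TiO2 with UV (UV+TiO2 minus UV, vertical axis) against that without UV (TiO2 minus control, horizontal axis) for 22548 probe sets in grey, with the 20 called for UV+TiO2 against UV circled and the 16 epidermal peptide genes filled. The dashed diagonal marks an interaction of 0, and 19 of the 20 circled probe sets lie below it.

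The 2 effects of TiO2 share no array, and across the 22548 probe sets they correlated at 0.07. Probe sets are not independent replicates, and the arrays were normalized together. The effect had an SD over probe sets of 0.16 with UV and 0.14 without. The median SE of a difference between 2 groups was 0.12, not far below those SDs. Error of that size lowers a correlation, so the 0.07 does not show that the 2 effects differ. The 3 UV+TiO2 arrays lay wholly below the 3 UV arrays for 8.27% of probe sets and wholly above for 9.85%, while the TiO2 arrays lay below the control arrays for 3.15% and above for 2.72%. Among the 16 epidermal peptide genes the UV+TiO2 arrays lay below the UV arrays for 12, and the TiO2 arrays below the control arrays for 6, with none above in either pair.

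The named genes with the smallest p for a negative interaction fell into those that UV raised and those that UV lowered. The 10 genes are chosen by that p among genes with 1 symbol, so their shape is a description. For all 10 the UV+TiO2 arrays lay below the UV arrays, as for 8.27% of all probe sets, a shape that the choice by p favours. For 8 the TiO2 arrays overlapped the control arrays. Over all probe sets the TiO2 arrays lay wholly below the control arrays for only 3.15% and wholly above for 2.72%. That overlap is thus not particular to these genes. UV alone raised 4 of the 10 and lowered 6 by limma's test. Over all probe sets it raised 27.5% and lowered 23.1%, so a response to UV is not particular to these genes. cpg-9, a chondroitin proteoglycan gene, had levels of 8.39, 8.54 and 8.63 with UV+TiO2, against 9.44, 9.42 and 9.14 with UV. Its levels were 5.17, 5.41 and 5.39 with TiO2, against 5.09, 5.36 and 5.16 in control worms. UV raised it in both settings, by 4.13 on the log2 scale without TiO2 and by 3.20 with it, and the interaction was −0.93 (SE 0.16, limma adjusted p = 0.47).

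H40L08.2 was lowered by UV in both settings. It had levels of 7.81, 8.07 and 8.403 with UV+TiO2, against 9.19, 9.24 and 8.98 with UV. Its TiO2 arrays at 11.17, 10.97 and 11.25 overlapped the control arrays at 10.98, 11.08 and 11.20. The interaction was −1.08 (SE 0.20, limma adjusted p = 0.47). F15E6.3 was also lowered by UV in both settings, with an interaction of −1.23 (SE 0.22, adjusted p = 0.47), and its other probe set gave −1.71. F16B4.4 stood at −0.80.

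dlc-2, which encodes a dynein light chain, had 5.74, 6.46 and 6.28 with UV+TiO2, against 7.62, 7.58 and 7.19 with UV, while TiO2 gave 6.85, 7.005 and 7.002 and control worms 7.13, 7.06 and 6.87. The joint exposure was thus the lowest group and UV alone the highest (interaction −1.24, SE 0.24, limma adjusted p = 0.47). nspd-9, of a small sperm peptide family, was at −0.66, and C45B2.8 at −0.80. The moulting gene mlt-8 differed from these in that TiO2 stood above control without UV: 9.86, 9.82 and 10.02 against 9.34, 9.67 and 9.39, while UV+TiO2 gave 6.89, 6.90 and 7.10 against 7.20, 7.30 and 7.503 with UV (interaction −0.81, SE 0.16, adjusted p = 0.587).

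**Figure D4:**
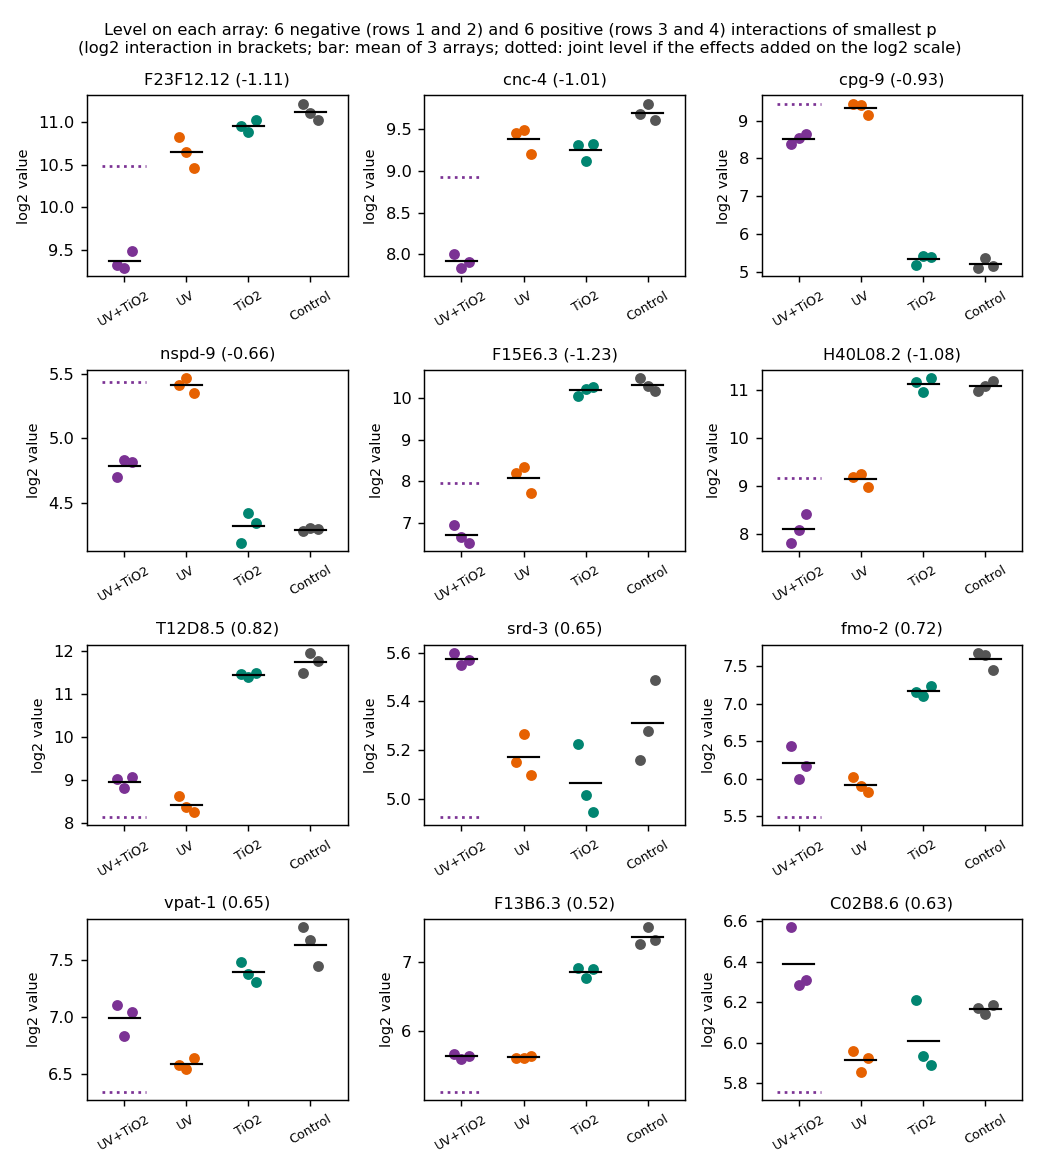
Log2 level (vertical axis) on each array for the 6 negative (rows 1 and 2) and 6 positive interactions (rows 3 and 4) with the smallest p among genes with 1 symbol, with the 4 groups along the horizontal axis, a bar for the mean of 3 arrays and a dotted line at the joint level that adding both effects on the log2 scale would give. The UV+TiO2 points lie below the dotted line for the first 6 genes, by 1.11 for F23F12.12, and above it for the other 6, by 0.82 for T12D8.5.

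The positive interactions are described in the same way. Probe sets without a gene symbol are left out here, among them the one at 1.42, whose p is smaller than any of these. Among the 10 genes with the smallest p the effect of TiO2 had opposite signs with and without UV in all 10, and limma's adjusted p ran from 0.614 to 0.726. fmo-2, a flavin-containing monooxygenase gene, had levels of 6.44, 6.0002 and 6.17 with UV+TiO2, which overlapped the UV arrays at 6.02, 5.90 and 5.82. Without UV the TiO2 arrays at 7.16, 7.10 and 7.24 lay below the control arrays at 7.68, 7.655 and 7.45. Its interaction was 0.72 (SE 0.16, adjusted p = 0.673), from 0.29 with UV and −0.43 without.

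F13B6.3 had levels of 5.68, 5.604 and 5.65 with UV+TiO2, which overlapped 5.62, 5.61 and 5.64 with UV (difference 0.02). They were 6.91, 6.76 and 6.90 with TiO2, against 7.25, 7.496 and 7.32 in control worms (interaction 0.52, SE 0.12, limma adjusted p = 0.673). The lectin gene clec-174 was at 0.73 and nspe-5, a small peptide gene of the sperm marker list, at 0.78. T12D8.5 had the smallest p of the positive interactions with a gene symbol (interaction 0.82, SE 0.18, adjusted p = 0.614), with 9.01, 8.81 and 9.06 with UV+TiO2 against 8.62, 8.38 and 8.27 with UV, and overlapping arrays without UV. M28.10 was at 0.91, vpat-1 at 0.65, C02B8.6 at 0.63 (its other probe set at 0.17), and the chemoreceptor genes srd-3 and srt-52 at 0.65 and 0.61.

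Oxidant and detoxification genes did not pass in either direction without array weights. Of 45 glutathione S-transferase genes 8 had an unadjusted p under 0.05, 6 positive and 2 negative, with a median of 0.06. gst-4, the usual reporter of SKN-1, had 7.94, 8.26 and 8.42 with UV+TiO2, against 8.78, 8.74 and 8.54 with UV. It had 7.18, 6.88 and 7.03 with TiO2, against 7.05, 6.79 and 6.85 in control worms. The UV+TiO2 arrays lay below the UV arrays and the TiO2 arrays overlapped the control arrays. The interaction was −0.62 (SE 0.19, limma adjusted p = 0.827). gst-10 was at −0.60, while gst-19 was at 0.54 and gst-12 at 0.49. All 6 superoxide dismutase and catalase genes had positive interactions, between 0.02 and 0.33, and 1 reached an unadjusted p under 0.05, the cytosolic superoxide dismutase gene sod-1 (0.28). None of 29 glutathione and thioredoxin genes did, and neither did any of 23 genes of the endoplasmic reticulum or 13 of the mitochondrial stress response. Of 73 cytochrome P450 genes 5 did (median 0.03), among them cyp-35A2 (−0.48), and of 64 UDP-glucuronosyltransferase genes 4 (median −0.04). These shares of 6.85% and 6.25% lay near the 5.29% of all genes.

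Heat shock, metal and DNA repair genes also gave no call without array weights. Of 19 heat shock genes 2 reached an unadjusted p under 0.05, the small heat shock gene hsp-12.1 (−0.68) and hsp-16.20 (0.51). hsp-16.2 was at 0.24 (SE 0.22) and hsp-70 at −0.23 (SE 0.29). Of 34 metal handling genes 4 did, with the ferritin gene ftn-1 at 0.68 (SE 0.21, limma adjusted p = 0.827). The metallothionein genes mtl-1 and mtl-2 were at 0.08 and 0.13, and 2 further probe sets of mtl-2 gave 0.23 and 0.44. Of 14 genes of the hypoxia factor HIF-1 and its targets 5 did: phy-2, a subunit of collagen prolyl hydroxylase, was at −0.74, and ftn-1, gst-19, the cysteine synthase-like gene cysl-2 (0.41) and rhy-1 (0.36) were positive. None of 21 genes of nucleotide excision repair and translesion synthesis reached that limit, and polh-1, which encodes a polymerase that bypasses UV lesions, was at 0.01 (SE 0.26). Of 33 genes of break, base and mismatch repair 27 were negative (median −0.18), with 1 under the limit, rad-50 at 0.68. The median of this list ran from −0.39 to −0.065 over 23 alternatives. Its mean level was 8.80, 8.89 and 8.71 with UV+TiO2 and 9.08, 8.99 and 8.84 with UV. It was 8.03, 8.48 and 8.35 with TiO2 and 8.63, 8.16 and 8.17 in control worms, so TiO2 replicate 1 was the lowest and control replicate 1 the highest of the arrays without UV. The pro-apoptotic gene egl-1 was at −0.10 (SE 0.15).

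Of the 27 stress, repair and immune genes listed one by one, 24 had a 95% interval inside ±1. The interval of the other 3, nlp-29, gst-4 and the STAT gene sta-1, reached past −1.

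No tissue marker passed for the interaction without array weights. The list medians were 0.16 for 19 intestinal genes (17 positive, 5 of them with an unadjusted p under 0.05, including the protease genes cpr-6 at 0.41 and asp-1 at 0.43), −0.12 for 26 body wall muscle genes (22 negative), −0.16 for 77 sperm genes (51 negative) and 0.04 for 57 neuronal genes. The sperm median turned positive in 2 of 23 alternatives (up to 0.04). The neuropeptide gene flp-1 had the most negative value of the neuronal list at −1.33, but with an SE of 0.45 (limma adjusted p = 0.898): its UV+TiO2 arrays at 6.86, 6.73 and 7.67 overlapped the UV arrays at 8.62, 8.397 and 7.32. Its other probe sets gave −0.59 and −0.70. Of 34 germline and oocyte genes 23 were positive (median 0.04, but −0.01 under median centring), and 19 markers of late embryos and early larvae had a median of 0.02. Of 146 cuticle collagen genes 86 were negative (median −0.04), of 75 ribosomal protein genes 54 were positive (median 0.03, but −0.03 under median centring), and all 5 yolk protein genes were positive, between 0.04 and 0.25. Of 50 genes of fasting and lipid breakdown 4 had an unadjusted p under 0.05, all negative, with the acyl-CoA dehydrogenase gene acdh-2 at −1.095 (SE 0.24, limma adjusted p = 0.614) and −0.74 on its other probe set.

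**Figure D5:**
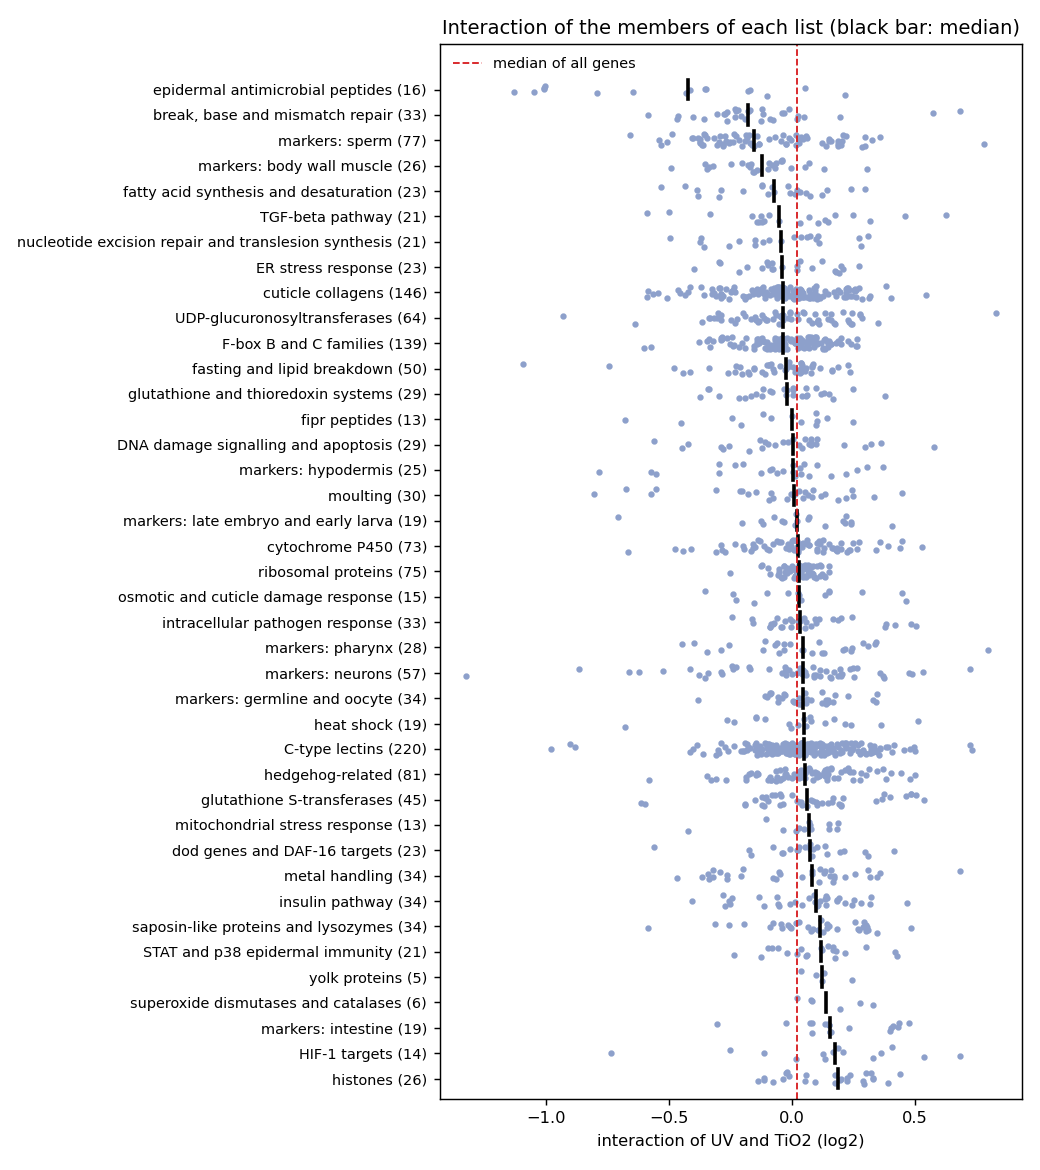
Interaction on the log2 scale (horizontal axis) of each measured member (points) of 40 gene lists (rows, number of genes in brackets), with the median of each list as a black bar and that of all genes as a dashed line. The epidermal peptide list has the lowest median at −0.42, and the medians of the other lists lie between −0.18 and 0.19.

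Control probe sets were set beside these results. The log2 signal at the 3′ end less that at the 5′ end of the Gapdh control probe sets was 0.70, 0.81, −0.11 and −0.21 in the UV+TiO2, UV, TiO2 and control groups, a difference of differences of −0.22. For catalase the values were 1.92, 2.30, 1.40 and 1.33, with a difference of differences of −0.44. For actin, 3′ less middle, the difference of differences was −0.12. The Bacillus dap probe sets averaged 8.99, 9.02, 6.53 and 7.06, with a difference of differences of 0.50. Of the 77 control probe sets left out of the tests 1 had an interaction with an unadjusted p under 0.05. Whether these differences have a part in the results above was not tested.

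The count of 0 depended on how the arrays were weighted. With limma's array weights 220 probe sets (0.976%) passed for the interaction, 111 higher and 109 lower, all with the sign they had without weights. They included F23F12.12 (−1.14, adjusted p = 0.00861) and 6 of the 16 epidermal peptide genes, of which cnc-4 had the smallest p (−1.03, adjusted p = 0.0172). The other lists held 21 of the called probe sets, among them gst-19 (0.82), ftn-1 (0.78), act-5 (0.70), parp-1 (−0.95), msh-2 (−0.74) and acdh-2 (−1.34). That count was not set against the size of those lists, so it is no result about them. That setting gives UV replicate 2 a weight of 5.82 and control replicate 1 one of 0.28. Without the 3 arrays of the lowest weight 402 passed, 125 higher and 277 lower, of which 98 were shared (44.5% of the first set and 24.4% of the second). With 1 weight for the arrays with UV and 1 for those without, the count was 0 again.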

How the data were processed

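RNA levels were measured on 12 Affymetrix arrays, 1 per sample, from 300 ng of RNA each. The submitters' processing notes name GCOS, Affymetrix Expression Console and RMA, and their versions are not given in the sources used here. The deposited values are log2 expression values per probe set, and RMA as defined corrects background and quantile-normalizes, so a general loss of RNA in a group would not show. The tests covered 22548 probe sets, none removed for a low value, and not the 77 control probe sets. The number of arrays limits the precision.

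The platform annotation gave 1 symbol for 20766 probe sets, several for 887 and none for 895, and 20701 matched the RefSeq table for WBcel235, used for names and gene order. A gene was represented by its probe set of highest mean, giving 17118 genes. Group means were fitted by lmFit and eBayes of limma 3.58.1 (R 4.3.3) without a replicate block, with 8 residual and 4.37 prior degrees of freedom. Calls rest on a Benjamini-Hochberg adjusted p under 0.05, counted across every probe set tested. The procedure was tested on simulated data, but the outcome is not given here and no result above rests on it.

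Named genes are the 10 of smallest interaction p in each direction among genes with 1 symbol, genes called for TiO2 with or without UV, up to 3 members of each of 40 lists and 27 single genes. Other list members named, T13F3.6 and the probe set without a symbol were singled out after their values were seen. Members and lists were chosen with earlier results of these data known. Lists are described by counts and medians. Alternatives were a replicate block, another prior variance, a filter on low values, quantile normalization again, median centring, array weights, 1 probe set per gene, array SD as a covariate, unlogged values and each array left out in turn.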

Additional observations from a re-analysis of the deposited data

Results flagged for a closer look

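These control measures, which enter no comparison, lay higher on all 6 arrays with UV than on all 6 without UV. The 3′ signal less the 5′ signal of Gapdh averaged 0.754 on the log2 scale with UV and −0.157 without. For catalase the same difference averaged 2.11 with UV and 1.36 without, and the 3′ less the middle signal of actin averaged 1.49 with UV and 0.739 without. The mean of 3 probe sets for the Bacillus gene dap, whose transcript is commonly used as an added control, was 9.004 with UV and 6.80 without. Whether such a control was added here is not given in the sources used.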

How the results depend on the processing

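For the interaction, the count of called probe sets was 0 by limma with the replicate block, a filter on low values, quantile normalization again, median centring, 1 probe set per gene, the array SD as a covariate and unlogged values. It was also 0 with each array left out in turn, where 769 to 2830 had an unadjusted p under 0.05 and the smallest adjusted p ran from 0.0628 to 0.65. It was 1 with trended and robust variance estimation switched on together (F23F12.12, adjusted p = 0.0338), 220 with array weights and 402 without the 3 arrays of lowest weight. The last of these, the setting without control replicates 1 and 3 (count 0) and the weights by UV state (count 0) were chosen after seeing the data. Leaving out arrays because they vary most lowers the estimated spread by construction.

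On unlogged values the interaction of cnc-8 reversed, to 0.16 of its mean level (limma adjusted p = 0.904). The other 27 genes followed kept their sign there, F23F12.12 at −0.44 of its mean level (0.515), nlp-29 at −0.17 (0.948) and F15E6.3 at −0.085 (0.955), and adjusted p ran from 0.0593 to 0.955. The median of the epidermal peptide list stayed negative in 23 log2 alternatives (−0.79 to −0.33). Of the 40 list medians 15 kept their sign in all 23. The −0.79 came from the filter on low values, which left 11 of the 16 peptide genes. The replicate block, the other prior variance, 1 probe set per gene and weights by UV state cannot change these estimates. The peptide median stayed at −0.42 in them. The calls for UV+TiO2 against UV, 20 on all arrays, ran from 2 to 69 without 1 array: 2 without UV replicate 1 or 2, 3 without UV+TiO2 replicate 2 or 3, 9 without UV+TiO2 replicate 1, 36 without control replicate 1 and 69 without UV replicate 3. They were 1856 with array weights, 174 with weights by UV state, 79 without the 3 arrays of lowest weight and 32 with the array SD as a covariate. For TiO2 against control, 1 on all arrays, they were 28 with array weights, 330 without the 3 arrays, 12 on unlogged values and 4 without control replicate 2. They were 1 with 1 probe set per gene, with the array SD and without control replicate 3 (where grl-21 did not pass), and 0 in the other alternatives, the replicate block included. Whether replicate numbers pair the samples cannot be settled from 3 arrays per group. Residuals of same-numbered arrays correlated between −0.71 and 0.50, with 8 of 18 pairs over 0.1. Of 12 arrays 3 correlated best with an array of their own number.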
